A study of Mus musculus with 8 samples.

Results

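Genes for Eph receptors, ephrins, Slits, Robos, netrins and netrin receptors were compared between mouse embryonic fibroblasts (MEFs) with a control vector and MEFs with a vector for YAP. The genes were chosen by name. They are the rows named Epha or Ephb with a number, Efna or Efnb with a number, Slit1 to Slit3, Robo1 to Robo4, Ntn1, Ntn4, Ntn5, Ntng1, Ntng2, Unc5a to Unc5d, Dcc and Neo1. This gave 40 genes on 41 of the 48641 rows, since Epha5 stands on 2 rows. Ntn3 was also searched for, and no row has that name. MEFs are fibroblasts cultured from mouse embryos, and YAP is a transcriptional co-activator that the Hippo kinase pathway restrains. The control group (EV) held 4 libraries of MEFs with an empty vector, 2 with GFP (replicates 1 and 2) and 2 with mCherry (replicates 3 and 4). The YAP group held 4 libraries of MEFs with wild-type YAP fused to the reporter, again 2 with GFP and 2 with mCherry in the same order. The cells of all 8 libraries were transduced with lentivirus, kept in doxycycline and sorted on the reporter of the vector. The labels do not give the strain of the mice, the promoter of the vector or whether replicates were separate cultures, and p-values therefore reflect just the scatter among these libraries, which may be technical.

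These families are known best for guiding axons, but they also steer fibroblasts, blood vessels and epithelia. Eph receptors are receptor tyrosine kinases that bind ephrins on neighbouring cells. EphA receptors mainly bind the lipid-anchored ephrin-A ligands and EphB receptors the transmembrane ephrin-B ligands, and signals run both into the receptor cell and back into the ephrin cell. Slits are secreted ligands of Robo receptors. Netrins other than the membrane-anchored netrin-Gs (Ntng1 and Ntng2) are laminin-like secreted proteins, of which Ntn1 acts through Dcc, Neo1 and the Unc5 receptors.

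Expression was deposited as FPKM (fragments per kilobase of transcript, scaled to the fragments of each library), which allows levels of different genes to be compared. FPKM sums were 733695 to 1018956 per library and the absolute depth is unknown. Relative depth, read from the lowest FPKM values, spanned 0.551 to 1.10 of EV replicate 1, and the lowest value, that of EV replicate 2, became 1.10 with a lower limit on FPKM. Yap1 itself did not rise with the YAP vector (limma adjusted p = 0.259). It measured 90.6 ± 2.49 FPKM in EV and 82.1 ± 2.22 FPKM in YAP libraries. Every YAP library lay below every EV library, a layout that 4.83% of all genes tested below shared. Every direction below therefore rests on the labels. The YAP targets Cyr61 and Ctgf rose, from 467 ± 53.1 to 860 ± 83.0 FPKM and from 65.3 ± 6.92 to 119 ± 9.56 FPKM (limma adjusted p = 0.00273 and 0.0122). Fibroblast markers were abundant, with Col1a1 at 2783 ± 287 FPKM and Vim at 2863 ± 139 FPKM in EV libraries. Values after ± are SD over the 4 libraries of a group, and SE marks a standard error. Log2 differences are on the log2(FPKM + 0.5) scale and understate changes of low genes. In these bulk libraries, fewer cells of a type and less RNA per cell cannot be told apart.

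Of the 40 genes, 26 had a mean of at least 1 FPKM and were tested, and a difference was called at a limma adjusted p under 0.05 over all 13276 tested genes. Netrin 4 rose and Epha3 fell in the YAP libraries, and the other 24 tested genes did not pass. Calls covered 0.934% of all tested genes in the upward and 0.821% in the downward direction. At an unadjusted p under 0.05, 4 of the 26 were higher and 3 lower, 26.9% in all, against 14.5% of all tested genes. The groups did not overlap in 5 of the 26 genes (19.2%, against 9.46% of all tested genes), namely Ntn4, Epha2 and Efnb1, which were higher (3 genes, against 4.63% of all tested genes), and Epha3 and Ntn1, which were lower (2 genes, against 4.83%). The median log2 difference was -0.025 over the 26 genes and -0.0038 over all tested genes, and 11 of the 26 lay above 0 and 15 below.

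**Figure D1:**
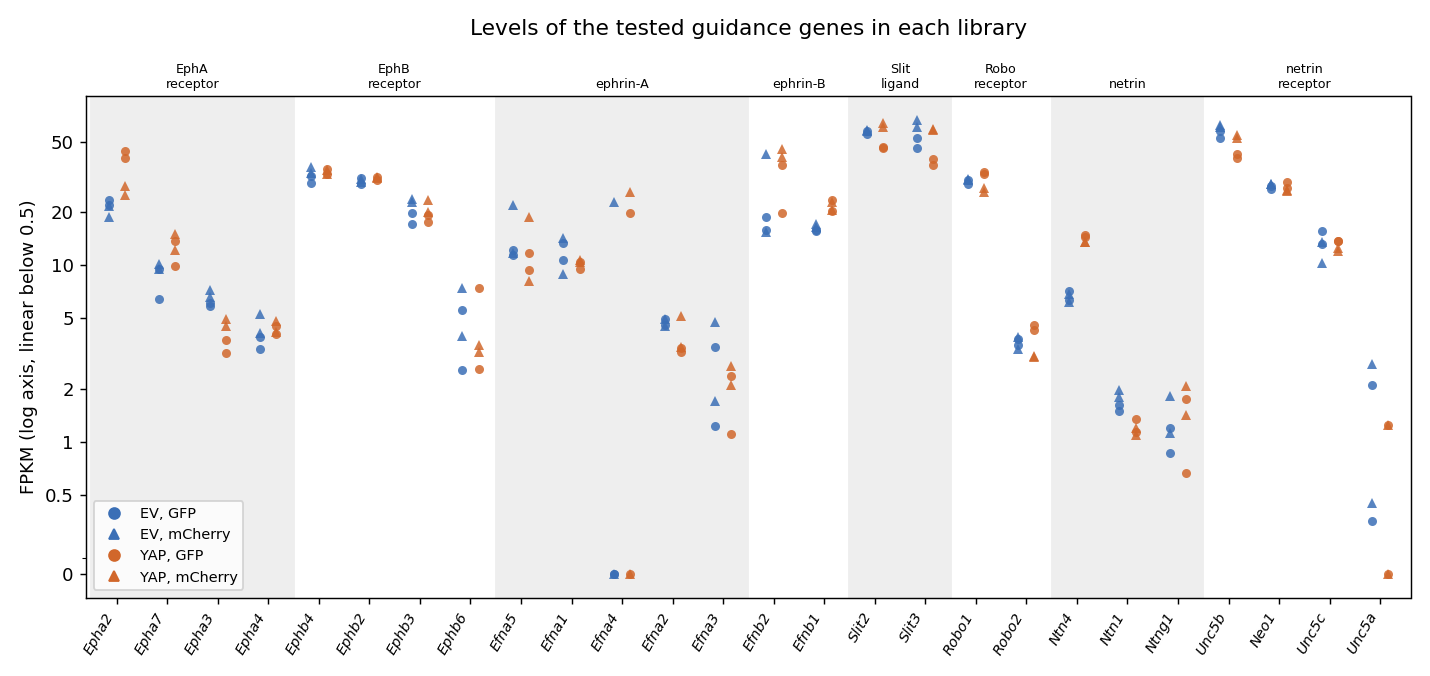
FPKM of the 26 tested genes in each of the 8 libraries, grouped by role, on a log axis that is linear below 0.5. Slit2 spans 46.3 to 63.4 FPKM, Unc5b 40.5 to 62.4 FPKM and Slit3 36.8 to 66.4 FPKM, and Efna4 is listed at 0 in 5 libraries.

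**Figure D2:**
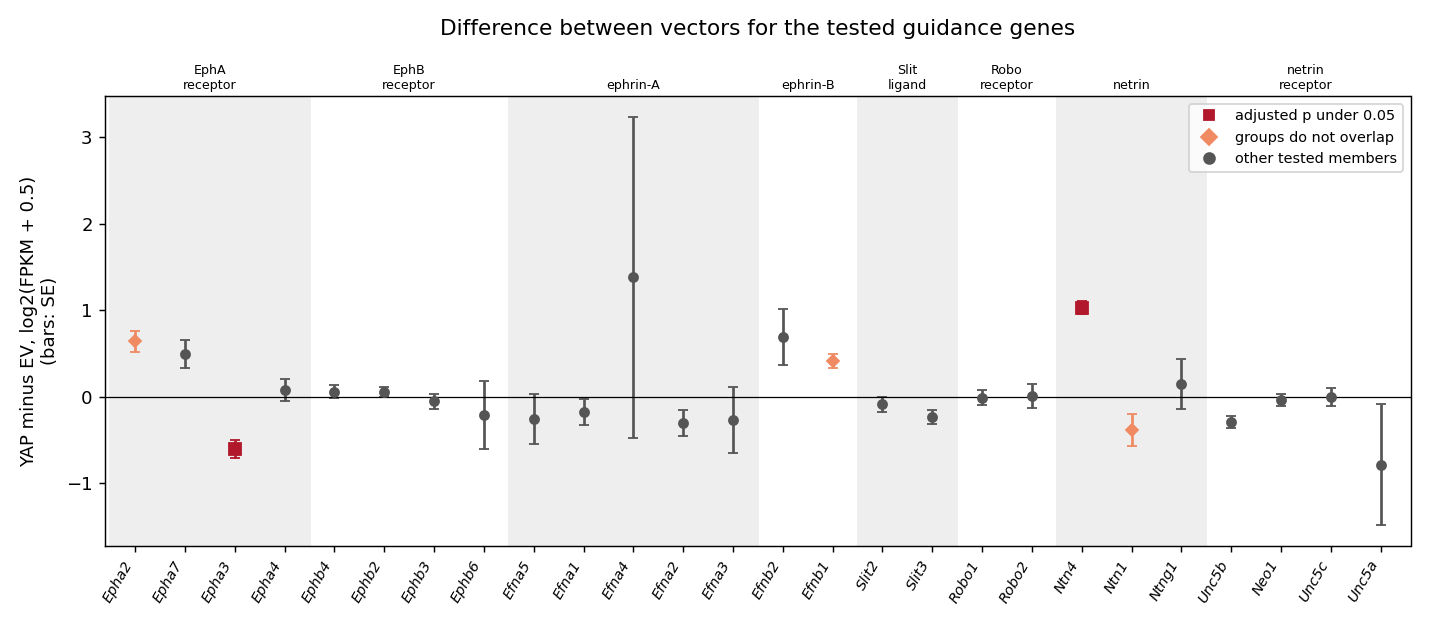
YAP minus EV difference on the log2(FPKM + 0.5) scale for each tested gene, with bars of 1 SE from the limma fit. Ntn4 and Epha3 (squares) pass an adjusted p of 0.05, and Epha2, Efnb1 and Ntn1 (diamonds) have groups that do not overlap without passing it.

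Several of these genes were well expressed in control fibroblasts. The highest were Unc5b at 58.1 ± 4.43 FPKM, Slit2 at 57.1 ± 1.40 FPKM and Slit3 at 56.3 ± 8.85 FPKM, whose order does not exceed their spread. Ephb4, Robo1, Ephb2 and Neo1 followed at 28.2 to 32.6 FPKM. At the other end, 14 genes stayed below a mean of 1 FPKM. Of these, Epha1, Epha8 and Ephb1 were listed at 0 in all 8 libraries, and Dcc, the classical netrin receptor of neurons, at 0 in 6 of them. Robo4, the Robo of endothelial cells, was listed at 0 in 7 libraries and Slit1 in 4. Epha5, Epha6, Epha10, Robo3 and Unc5d stayed below 0.5 FPKM in every library, and Robo3 was listed at 0 in all EV libraries and at 0.304, 0, 0.356 and 0.459 FPKM over YAP replicates 1 to 4.

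The start regions of the genes whose groups did not overlap are shown because TEAD factors, the DNA-binding partners of YAP, recognise GGAATG. RefSeq (GRCm38.p6) held a promoter, from 250 bases before the start to 50 after it, for 25 of the 26 tested genes, Ntn1 not among them. Capitals mark GGAATG, or CATTCC where it lies on the other strand, and each sequence is written 5′ to 3′ on the strand of the gene.
Ntn4 (chr10:93640799-93641098, plus strand): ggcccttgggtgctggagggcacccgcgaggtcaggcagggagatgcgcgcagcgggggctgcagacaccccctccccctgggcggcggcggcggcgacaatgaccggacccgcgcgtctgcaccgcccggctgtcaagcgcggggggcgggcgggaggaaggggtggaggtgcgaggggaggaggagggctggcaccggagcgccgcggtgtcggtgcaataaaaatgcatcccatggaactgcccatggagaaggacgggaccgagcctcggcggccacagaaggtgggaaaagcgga
Epha3 (chr16:63864126-63864425, minus strand): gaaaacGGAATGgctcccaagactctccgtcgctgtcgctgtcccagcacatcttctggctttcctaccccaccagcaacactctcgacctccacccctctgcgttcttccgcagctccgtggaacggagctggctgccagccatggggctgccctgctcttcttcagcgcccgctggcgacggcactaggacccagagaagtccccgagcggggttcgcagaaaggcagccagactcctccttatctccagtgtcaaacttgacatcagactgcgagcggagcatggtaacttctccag
Epha2 (chr4:141300971-141301270, plus strand): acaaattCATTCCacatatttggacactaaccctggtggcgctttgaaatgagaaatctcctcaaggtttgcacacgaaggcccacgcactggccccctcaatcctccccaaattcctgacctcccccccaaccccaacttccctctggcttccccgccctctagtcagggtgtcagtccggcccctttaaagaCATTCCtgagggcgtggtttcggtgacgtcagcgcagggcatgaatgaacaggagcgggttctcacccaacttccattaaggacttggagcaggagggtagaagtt
Efnb1 (chrX:99135811-99136110, plus strand): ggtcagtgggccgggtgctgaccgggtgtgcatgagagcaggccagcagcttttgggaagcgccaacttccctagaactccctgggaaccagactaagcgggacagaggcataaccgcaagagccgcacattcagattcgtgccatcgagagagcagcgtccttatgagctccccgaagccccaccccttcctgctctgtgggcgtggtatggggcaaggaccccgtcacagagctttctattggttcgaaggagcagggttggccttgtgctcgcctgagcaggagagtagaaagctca
Epha2 held the motif at 2 places, starting 243 and 56 bases before the start of transcription, and Epha3 at 1 place, 244 bases before it. The windows of Ntn4 and Efnb1 held none. The Ntn4 window follows the RefSeq start and lies downstream of the GENCODE gene start at 93640681, so bases before that start were not searched. The Efnb1 window ends at 99136110, before the GENCODE gene start at 99136130, so the bases next to that start were not searched. Of 32851 promoters of all genes, 14.7% held GGAATG on either strand and 1.33% held it at 2 or more places. Of the 25 tested genes with a promoter, 5 held it, Epha2, Epha3, Efnb2, Ntng1 and Robo2, on 5 of 30 promoters. The AP-1 motif TGANTCA was in 7.81% of all promoters and in none of these 30. A match describes the letters of the window and is not a binding site, and enhancers lie outside these windows.

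Among the netrins, Ntn4 was the gene with the largest called change. It encodes netrin 4, a secreted protein of basement membranes that binds laminin. Ntn4 (ENSMUSG00000020019, chromosome 10, 93640681 to 93747207, plus strand, GRCm38) measured 6.40, 7.13, 6.88 and 6.21 FPKM over EV replicates 1 to 4. Over YAP replicates 1 to 4 it measured 14.8, 14.4, 13.5 and 13.6 FPKM. Every YAP library lay far above every EV library, and the GFP and mCherry libraries of a group lay close together. The means were 6.65 ± 0.428 and 14.1 ± 0.625 FPKM. The log2(FPKM + 0.5) difference was 1.03 (SE 0.076, limma adjusted p = 0.00244), which is 2.04-fold on that scale. The difference was 1.06 within GFP and 1.00 within mCherry libraries on the log2 scale (limma adjusted p = 0.0163 and 0.0309). Over all 26 genes, the calls within GFP were 2, Ntn4 and Epha2, both higher, against 1.3% of all tested genes in either direction and 0.67% upward. The 1 call within mCherry was Ntn4, against 0.399% in either direction and 0.241% upward. In the authors' deposited table, which holds 1 value per pooled group, Ntn4 stood at 8.51 and 18.0 FPKM (q = 0.000502).

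Ntn1, the founding netrin, was much lower and lay the other way. It measured 1.51, 1.63, 1.98 and 1.79 FPKM over EV replicates 1 to 4 against 1.35, 1.15, 1.21 and 1.09 FPKM over YAP replicates 1 to 4. The groups did not overlap, but the log2 difference of -0.39 (SE 0.18) did not pass (limma adjusted p = 0.383). Ntng1, a membrane-anchored netrin-G, stood at 1.25 ± 0.408 and 1.48 ± 0.600 FPKM (adjusted p = 0.862), and Ntng2 and Ntn5 were below 1 FPKM in every library. Summed over the family, netrin transcripts went from 10.1 ± 0.594 to 17.1 ± 0.638 FPKM, a description to which Ntn4 contributes most.

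EphA receptors lay on both sides, and 1 of the 4 tested passed. Epha3, a receptor of mesenchymal and neural cells that binds ephrin-A5 with high affinity, fell. Epha3 (ENSMUSG00000052504, chromosome 16, 63543534 to 63864175, minus strand, GRCm38) measured 6.14, 5.89, 6.59 and 7.21 FPKM over EV replicates 1 to 4. Over YAP replicates 1 to 4 it measured 3.78, 3.19, 4.99 and 4.51 FPKM, all below the lowest EV library. The means were 6.46 ± 0.579 and 4.12 ± 0.793 FPKM, which is -0.60 on the log2 scale (SE 0.10, limma adjusted p = 0.0429). This call was lost without any 1 of the 8 libraries, with limma adjusted p of 0.0755 to 0.140, while the log2 difference stayed between -0.65 and -0.54. In the authors' deposited table Epha3 stood at 7.26 and 4.67 FPKM (q = 0.000502).

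Epha2, the EphA receptor of epithelia and of many migrating cells, was the most abundant of its class. Epha2 (ENSMUSG00000006445, chromosome 4, 141301240 to 141329384, plus strand, GRCm38) measured 21.8, 23.4, 18.8 and 21.5 FPKM over EV replicates 1 to 4. In YAP replicates 1 and 2, with GFP, it stood at 40.3 and 44.3 FPKM, and in replicates 3 and 4, with mCherry, at 25.0 and 28.2 FPKM. All YAP libraries lay above all EV libraries, the GFP ones by much more. Over both reporters the log2 difference was 0.64 (SE 0.12), just short of the threshold (limma adjusted p = 0.0569). It was 0.89 (SE 0.11, limma adjusted p = 0.0293) within GFP libraries and 0.39 (SE 0.11, limma adjusted p = 0.292) within mCherry libraries. The interaction of vector and reporter is the YAP minus EV difference within mCherry minus that within GFP libraries. It did not pass for Epha2 (log2 -0.50, SE 0.16, limma adjusted p = 0.425, unadjusted p = 0.0218). In the authors' deposited table Epha2 stood at 23.9 and 40.5 FPKM (q = 0.000502).

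Epha7, which can be made in a truncated form that changes repulsion into adhesion, measured 9.56, 6.40, 10.2 and 9.56 FPKM over EV replicates 1 to 4. Over YAP replicates 1 to 4 it measured 9.85, 13.8, 12.2 and 15.0 FPKM. YAP replicate 1 lay within the EV range, and the log2 difference of 0.49 (SE 0.16) did not pass (limma adjusted p = 0.224), although the authors' deposited table calls Epha7 higher (10.5 and 15.1 FPKM, q = 0.0155). Epha4, which binds ephrins of both classes, stood at 4.20 ± 0.818 and 4.42 ± 0.351 FPKM (adjusted p = 0.827). Summed over the class, EphA transcripts stood at 41.2 ± 1.98 FPKM in EV and 55.8 ± 8.15 FPKM in YAP libraries.

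Epha1 differed between the deposited tables. Every library lists it at 0, whereas the authors' deposited table gives 1.40 FPKM for pooled controls, 5.88 FPKM for pooled YAP and a call (q = 0.0320). Epha1 (chromosome 6, 42358487 to 42373268, minus strand, GRCm38) overlaps Zyx on the plus strand in GENCODE. Whether strand was used in counting is not given in the sources used here, and a listed 0 can be a failed estimate. No direction is therefore given for Epha1.

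Of the EphB receptors 4 were expressed, 3 of them abundantly, and their groups overlapped. Ephb4, known for its role in veins, measured 29.2, 32.1, 35.7 and 33.4 FPKM over EV replicates 1 to 4 against 32.6, 35.1, 32.8 and 34.8 FPKM over YAP replicates 1 to 4. The groups overlapped, at 0.055 on the log2 scale (SE 0.074, limma adjusted p = 0.786). Ephb4 overlaps Zan on the opposite strand, as Unc5a does Hk3, and Slit2 and Efna4 overlap antisense genes, so reads of such partners cannot be told apart if strand was not used in counting. Ephb2 stood at 30.0 ± 1.03 and 31.1 ± 0.646 FPKM, and Ephb3 between 17.2 and 23.8 FPKM over the 8 libraries. Ephb6, whose kinase domain is inactive, varied more, from 2.56 to 7.43 FPKM across libraries. None of the 4 tested EphB receptors passed, and their limma adjusted p ranged from 0.745 to 0.847. The class summed to 88.4 ± 6.10 FPKM in EV and 89.1 ± 3.84 FPKM in YAP libraries.

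Neither of the 2 tested ephrin-B ligands passed, and Efnb1 lay higher in every YAP library. Efnb1, the X-linked ephrin whose loss causes craniofrontonasal syndrome in humans, is on chromosome X (99136130 to 99148991, plus strand, GRCm38). Efnb1 measured 15.9, 15.5, 16.4 and 17.1 FPKM over EV replicates 1 to 4 against 20.3, 23.5, 20.6 and 22.7 FPKM over YAP replicates 1 to 4. The groups did not overlap, and both had a narrow spread. The log2 difference was 0.41 (SE 0.077), just short of the threshold (limma adjusted p = 0.0537), and the authors' deposited table calls Efnb1 higher (21.0 and 28.8 FPKM, q = 0.0472). Efnb2, an ephrin of arteries and a partner of Ephb4, measured 15.7, 18.6, 15.3 and 42.4 FPKM over EV replicates 1 to 4. Over YAP replicates 1 to 4 Efnb2 measured 19.8, 36.8, 45.3 and 40.7 FPKM. EV replicate 4 lay among the high YAP libraries and YAP replicate 1 near the low EV libraries, so the groups overlapped (log2 0.69, SE 0.32, limma adjusted p = 0.385). Efnb3 stood at 0.572 ± 0.249 and 0.521 ± 0.299 FPKM and was not tested.

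None of the 5 ephrin-A genes passed, with limma adjusted p from 0.396 to 0.797. Efna5, a ligand of Epha3, measured 11.5, 12.2, 11.7 and 21.9 FPKM over EV replicates 1 to 4 against 9.42, 11.7, 8.14 and 18.7 FPKM over YAP replicates 1 to 4. Replicate 4 was the highest library in both groups, and the groups overlapped. Efna1, a ligand of Epha2, stood at 11.8 ± 2.44 and 10.3 ± 0.488 FPKM, and Efna2 at 4.76 ± 0.243 and 3.81 ± 0.911 FPKM. Efna3 ranged from 1.11 to 4.77 FPKM across libraries. Efna4 was listed at 22.8 FPKM in EV replicate 3, at 19.7 FPKM in YAP replicate 2, at 26.0 FPKM in YAP replicate 4 and at 0 in the other 5 libraries. These zeros beside high values can be failed estimates, and in the authors' deposited table Efna4 stood at 11.1 and 9.82 FPKM (q = 0.816).

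None of the 4 tested Slit and Robo genes passed between the vectors. Slit3 measured 52.2, 46.3, 60.2 and 66.4 FPKM over EV replicates 1 to 4 against 39.7, 36.8, 58.7 and 57.9 FPKM over YAP replicates 1 to 4. All mCherry libraries lay above all GFP libraries. The log2 difference was -0.24 for YAP minus EV (SE 0.082, limma adjusted p = 0.252) and 0.48 for mCherry minus GFP (SE 0.082, limma adjusted p = 0.190, unadjusted p = 0.000574). Slit2 measured 57.5, 55.0, 57.5 and 58.2 FPKM over EV replicates 1 to 4. Over YAP replicates 1 to 4 Slit2 measured 46.9, 46.3, 63.4 and 60.2 FPKM. The YAP libraries with GFP lay below, and those with mCherry above, all EV libraries. The interaction of vector and reporter was 0.36 on the log2 scale (SE 0.10, limma adjusted p = 0.403, unadjusted p = 0.0134).

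Robo1, the main Robo of these cells, mirrored this layout. It measured 28.7, 30.5, 30.4 and 30.6 FPKM over EV replicates 1 to 4 against 32.9, 33.7, 27.3 and 25.9 FPKM over YAP replicates 1 to 4. The YAP libraries with GFP lay above and those with mCherry below all EV libraries. The interaction was -0.36 on the log2 scale (SE 0.12, limma adjusted p = 0.420, unadjusted p = 0.0200). Robo2 measured 3.52, 3.84, 3.95 and 3.36 FPKM over EV replicates 1 to 4. Over YAP replicates 1 to 4 Robo2 measured 4.61, 4.28, 3.06 and 3.01 FPKM, the same layout (limma adjusted p = 0.562 for the interaction). Groups that did not overlap within each reporter, in opposite directions, were found in 3 of the 26 genes, Slit2, Robo1 and Robo2, and in 7.58% of all tested genes. Over all of the 26, 0 passed for the interaction and 3 had an unadjusted p under 0.05 (11.5%). Over all tested genes these shares were 0.0678% (0.0452% upward and 0.0226% downward) and 9.81%.

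**Figure D3:**
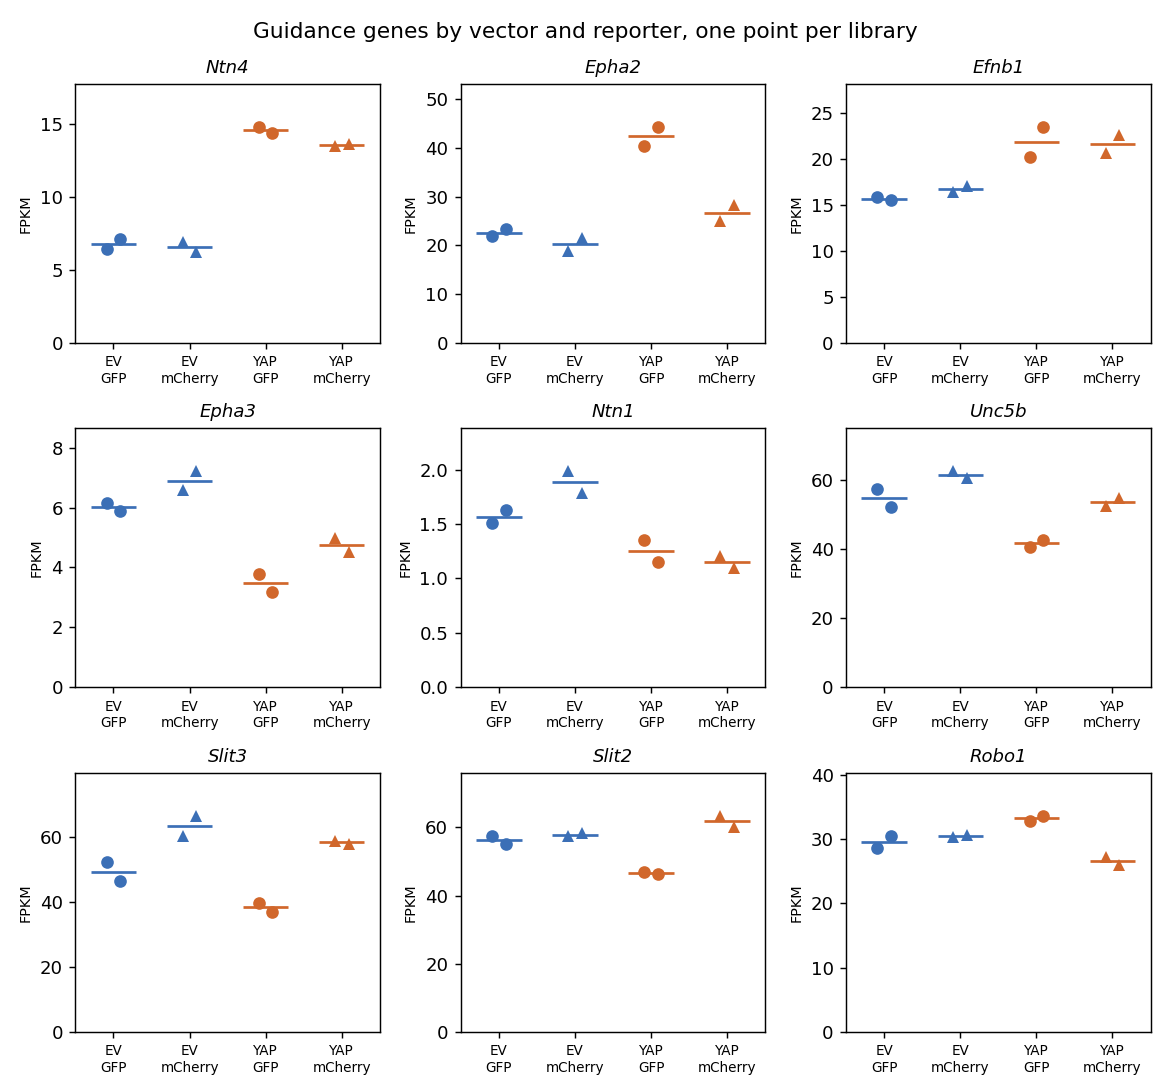
FPKM of 9 guidance genes by vector and reporter, with 1 point per library, a line at the mean of each pair and axes that start at 0. Ntn4, Epha2 and Efnb1 are higher and Epha3, Ntn1, Unc5b and Slit3 lower with YAP under either reporter. Slit2 and Robo1 lie on opposite sides of EV in the GFP and mCherry libraries with YAP.

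Between reporters, 0 of the 26 genes passed with the vector in the fit, against 0.0904% of all tested genes (0.0603% higher and 0.0301% lower in mCherry). At an unadjusted p under 0.05 there were 6 (23.1%), against 10.6% of all tested genes. Slit2, Slit3 and Ephb3 were higher in every mCherry than in every GFP library, 3 of 26 genes (11.5%), against 5.1% of all tested genes (2.95% higher and 2.15% lower in mCherry). For Slit2 this rests on a near tie, 57.54 FPKM in EV replicate 3 (mCherry) against 57.49 FPKM in EV replicate 1 (GFP). For Ephb3 the nearest libraries were YAP replicate 3 (mCherry) at 19.99 FPKM and EV replicate 1 (GFP) at 19.75 FPKM. After Slit3, the smallest unadjusted p for the reporter were those of Unc5b (log2 0.26, SE 0.071, limma adjusted p = 0.311) and Epha2 (log2 -0.41, SE 0.12, limma adjusted p = 0.340). Ephb3 averaged 22.4 FPKM in mCherry and 18.4 FPKM in GFP libraries (log2 0.27, SE 0.085, limma adjusted p = 0.362).

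**Figure D4:**
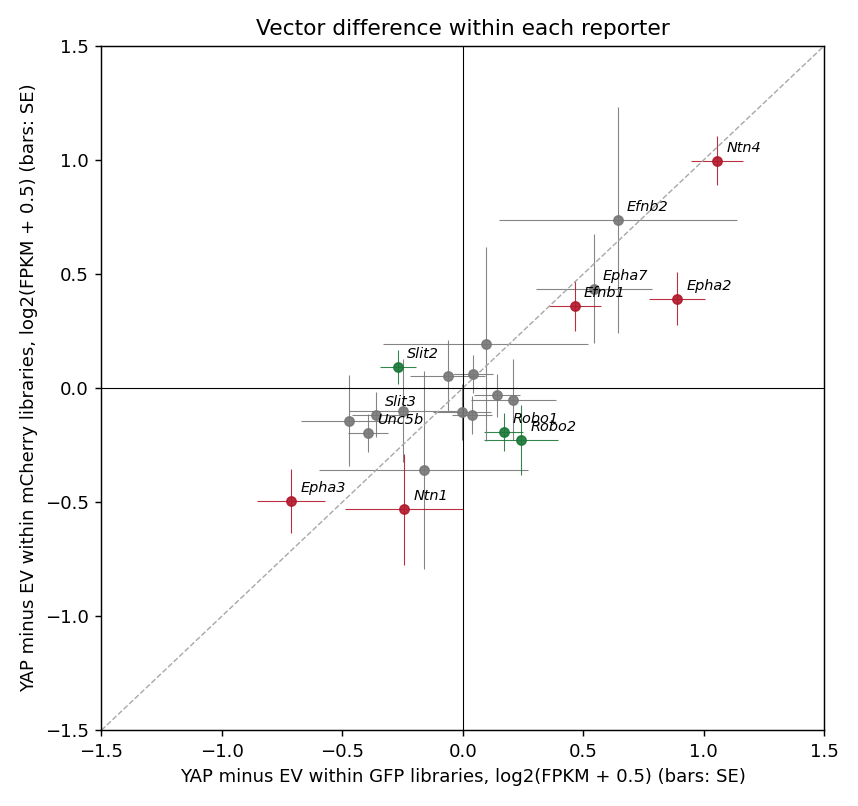
YAP minus EV difference within mCherry libraries (y) against that within GFP libraries (x), on the log2(FPKM + 0.5) scale with bars of 1 SE, for the 22 tested genes whose SE within a reporter was at most 0.5. Red genes do not overlap between vectors over all 8 libraries, green genes lie on opposite sides within the reporters, and the dashed line marks equal differences.

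Of the 4 tested netrin receptors none passed. Unc5b, an Unc5 receptor that also acts in vessel sprouting, measured 57.3, 52.2, 62.4 and 60.4 FPKM over EV replicates 1 to 4 against 40.5, 42.6, 52.4 and 54.6 FPKM over YAP replicates 1 to 4. Within each reporter both YAP libraries lay below both EV libraries, but over all 8 the groups overlapped. The log2 difference was -0.30 (SE 0.071, limma adjusted p = 0.114), and the authors' deposited table calls Unc5b lower (65.1 and 53.4 FPKM, q = 0.0172). Neo1, neogenin, which also binds repulsive guidance molecules, stood at 28.2 ± 0.797 and 27.4 ± 1.40 FPKM (adjusted p = 0.833), and Unc5c at 13.2 ± 2.21 and 13.0 ± 0.883 FPKM (adjusted p = 0.995). Unc5a was listed between 0 and 2.75 FPKM (adjusted p = 0.658).

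In the authors' deposited table, 24 of the 40 genes were tested and 7 were called, 5 higher and 2 lower, which is 29.2% against 5.95% of all genes tested there (3.04% higher and 2.91% lower). The calls of the authors' deposited table were Ntn4, Epha2, Efnb1, Epha7 and Epha1 upward and Epha3 and Unc5b downward. That table comes from the same series and is no independent evidence. Levels in the authors' deposited table were higher than the per-library means, with a median ratio of 1.18 over the 26 genes and 1.14 over all tested genes in the control arm. The ratio of the authors' deposited table to the library mean was 2.12 for Slit2 and 2.11 for Robo2 in the control arm, and 2.39 and 2.63 in the YAP arm. Slit2 stood there at 121 and 129 FPKM (q = 0.870), whereas its library means were 57.1 FPKM in EV and 54.2 FPKM in YAP. Neither direction was called.

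On 3 lists of genes that work with these receptors, with 23, 17 and 16 tested genes, 1 rose and 1 fell, against 1.76% of all tested genes in either direction. Flrt3, a membrane protein that binds Robo1 and Unc5 receptors, rose from 4.79 ± 0.286 to 7.78 ± 0.827 FPKM (log2 0.64, SE 0.10, limma adjusted p = 0.0335). Rgs3, which links ephrin-B to G protein signalling, fell from 38.3 ± 1.67 to 25.3 ± 1.97 FPKM (log2 -0.59, SE 0.077, limma adjusted p = 0.0173). For both genes the groups did not overlap, but neither was called without any 1 of EV replicates 1 to 4 or YAP replicates 1 and 2. On the Eph and ephrin list, Rgs3 was the 1 call among 23 tested partners, the list median was 0.013, and 2 were higher and 4 lower at an unadjusted p under 0.05, which 14.5% of all tested genes passed. On the Slit and Robo list, Flrt3 was the 1 call among 17, with a median of 0.099, and 1 was higher and 1 lower at that unadjusted p. On the netrin list 0 of 16 passed, with Pitpna and Ablim1 having the smallest p (log2 -0.22 and 0.52, limma adjusted p = 0.201 and 0.226) and a median of -0.033, and 1 was higher and 2 lower at that unadjusted p.

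Of the markers of other cell types, 5 mesothelial, 9 macrophage, 2 neuronal and 1 epithelial marker were tested. Among these, 4 single genes passed, Msln and Stmn2 upward and C1qa and C1qc downward. Over all tested genes 1.76% passed, 0.934% upward and 0.821% downward. The part of these markers in the results above was not tested. Of 5 mesothelial markers, all tested, Msln rose from 9.21 ± 1.64 to 23.4 ± 4.92 FPKM (limma adjusted p = 0.000764) and 4 did not pass, of which Upk3b and Upk1b had log2 differences of 0.91 and 0.72 and Wt1 and Lrrn4 of -0.19 and -0.14. Their summed level was 15.6 to 17.2 FPKM in EV and 29.7 to 37.7 FPKM in YAP libraries, with none at 0 throughout. Of 9 tested macrophage markers 2 fell, C1qa and C1qc, against 0.821% of all tested genes. The other 7 did not pass, from -0.69 for C1qb to 0.36 for Laptm5 on the log2 scale, with Tyrobp at 0.049 and Csf1r at -0.056. The 10 in the table summed to 150.0 to 219.9 FPKM in EV and 93.6 to 166 FPKM in YAP libraries. Of 8 neuronal markers 7 were in the table and 2 were tested. Stmn2 rose from 7.49 ± 0.908 to 16.5 ± 1.46 FPKM (limma adjusted p = 0.00365). Syt1, the other tested one, stood at 0.822 ± 0.184 and 1.66 ± 0.593 FPKM and did not pass (log2 0.67, limma adjusted p = 0.329, unadjusted p = 0.0437). Snap25 and Rbfox3 were at 0 in every library. The list summed to 7.30 to 9.58 FPKM in EV and 17.1 to 19.9 FPKM in YAP libraries, to which Stmn2 contributed most. None of the 8 endothelial markers reached the mean of 1 FPKM, Cldn5 and Tie1 were at 0 in every library, and the list summed to 1.35 to 1.86 FPKM in EV and 2.70 to 4.75 FPKM in YAP libraries. Schwann cell and neural crest markers summed to at most 3.75 FPKM and epithelial markers to at most 4.68 FPKM in any library, with Epcam and Krt5 at 0. Of the 8 fibroblast markers, all tested, none passed, with 0 higher and 3 lower at an unadjusted p under 0.05, and their median log2 difference was -0.034. They summed to 9373 to 10017 FPKM in EV and 9405 to 10959.7 FPKM in YAP libraries.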

How the data were processed

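RNA from 8 MEF libraries was made with a stranded mRNA kit, per the labels' protocols. The submitters' processing notes name TopHat, Cufflinks and mm10 and give no versions. The authors deposited FPKM per gene and library, and a table with 1 FPKM value per pooled group and a p-value and q-value per gene, per the file headers. The annotation and any further scaling are not given in the sources used here.

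The 49 identifiers on more than 1 row (114 rows, Epha5 among them) were left out of the fits, which left 48527 genes. Those averaging 1 FPKM or more entered limma 3.58.1 (R 4.3.3) as log2(FPKM + 0.5), with a trended variance and terms for group and reporter. The interaction, and the YAP minus EV differences within each reporter, came from a fit of the 4 vector and reporter arms, pooling their spread. Adjustment was by Benjamini-Hochberg over all 13276 tested genes, and the fit was tested on simulated data. Alternatives were other pseudocounts, filters, scalings and terms, the differences within each reporter from that fit of arms, and leaving out each library.

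The members and lists were chosen with earlier results of these data known. The result of 1 further partner list is not reported here. Per-library values were given for genes that passed or did not overlap and for the most abundant gene of each role. They were also given for the 3 smallest p of the reporter and of the interaction. Epha7, Efna4, Robo2, Robo3 and Epha1 were added after their values were seen. Coordinates are from GENCODE M21 (GRCm38, the assembly mm10 names). Tables and plots used Python 3.11.15, pandas 2.3.3, numpy 2.4.6 and matplotlib 3.10.9.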

Additional observations from a re-analysis of the deposited data

Results flagged for a closer look

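Within the 26 tested genes, 52 groups of 4 libraries were examined for a library that stands far from the other 3, and 5 did. Chance gives about 1 in 20 such groups. Efnb2 in EV replicate 4 was at 42.4 FPKM, against 15.3 to 18.6 FPKM in the other EV libraries. Efna5 was high in the same library, at 21.9 FPKM. Efna4 in EV replicate 3 was at 22.8 FPKM while the other EV libraries were listed at 0. Efna2 in YAP replicate 3 was at 5.17 FPKM, and Robo1 in EV replicate 1 was low at 28.7 FPKM.

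For 3 genes the YAP libraries lay on opposite sides of the EV libraries of the same reporter. The log2 difference of Slit2 was -0.27 within GFP and 0.093 within mCherry libraries. For Robo1 it was 0.17 and -0.19, and for Robo2 0.24 and -0.23. The interaction passed for none of the 3 (limma adjusted p = 0.403, 0.420 and 0.562), and 7.58% of all tested genes showed such a layout.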

How the results depend on the processing

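The count of guidance genes higher with YAP was 1 under 17 of 19 alternatives and 0 with the replicate block. It was 2 for the difference within GFP libraries in the fit of all 8, where Epha2 also passed. Leaving out any 1 library left 1 gene higher, and Ntn4 passed in each of these fits. The count of genes lower with YAP (Epha3 alone) was 0 with no low-level filter and with a filter at a mean of 0.3 FPKM. It was also 0 without the reporter term, with the replicate block, within GFP or mCherry libraries, and when any 1 library was left out. The cause was not tested. Non-overlapping genes numbered 5 to 7 when any 1 library was left out, and 16 and 14 within GFP and within mCherry libraries, where 2 libraries face 2 and 48.9% and 41.4% of all tested genes did not overlap. Called partners over all lists numbered 1 without a filter on level and 0 with the replicate block. They numbered 0 within GFP libraries, 0 within mCherry libraries and 0 to 2 when any 1 library was left out. Counts for the reporter and for the interaction were 0 throughout. Small differences changed sign. Ephb4 became -0.032 and Slit2 0.093 within mCherry libraries. Robo1 became 0.17 within GFP libraries and spanned -0.066 to 0.039 when any 1 library was left out.

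Over all tested genes, same-numbered libraries showed little shared deviation (r from -0.015 to 0.090, and 3 of 8 libraries correlated best with their own number). The labels name no pairs, and a correlation over all genes cannot decide whether some genes were paired by number. The main fit used no pairing. The replicate block left Ntn4 at an adjusted p of 0.0506 and Epha3 at 0.191, with the same log2 differences. Over all genes, the main 124 higher and 109 lower calls became 75 and 71 with no low-level filter, 80 and 70 lacking the reporter term, 78 and 88 without the variance trend, 6 and 9 with the replicate block, 89 and 83 with GFP libraries alone and 32 and 21 with mCherry libraries alone. They became 25 to 56 and 21 to 58 when any 1 library was left out. Depth is unknown, so values of genes below 1 FPKM carry no interval, and zeros may be failed estimates.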
